A study of Caenorhabditis elegans with 2 samples.

Results

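The 1718 NHR-11 peaks of chromosome II, out of 9931 peaks in the authors' pooled list on the ce11 build, were taken as every peak of that list on the chromosome and described along its length. The assay was chromatin immunoprecipitation followed by sequencing (ChIP-seq), in which DNA bound by a protein is enriched with an antibody and sequenced. The material was whole late embryos of mixed sex of the Caenorhabditis elegans strain OP305. Its genotype was unc-119(ed3) III with the insertion wgIs305, a transgene for eGFP-tagged NHR-11, and both replicates shared it. In the labels the insertion is not placed on a chromosome. The 2 biological replicates formed 1 group with no second condition, so each value stands beside chromosomes III, IV, V and X, and the experiment's control, which the labels name, was not analysed here. A whole-embryo peak cannot be assigned to a cell type, and the files give no read counts, so the depth is unknown.

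NHR-11 belongs to the nuclear hormone receptors, transcription factors that bind short DNA motifs through a zinc finger domain, a family that is greatly expanded in nematodes. The centres of C. elegans autosomes recombine rarely and hold many conserved and highly expressed genes. The arms recombine more and are richer in repeats and in fast-evolving gene families, such as those for chemoreceptors and for F-box and MATH domain proteins.

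The sequences at 8 of the strongest sites are shown because the results turn on them. The first 4 are the strongest site and others of the dense interval described below, the next 2 are the strongest site of the right arm and a promoter of the centre outside that interval, and the last 2 are arm sites made of repeats. Each is the summit base with 50 bases on either side, on the plus strand of RefSeq WBcel235 (ce11). Capitals mark GAGAGA at T15H9.8 and daf-19, the heat shock unit (GAA, any pair of bases, TTC) at F44E5.5, and the unit CTACAAA at scl-17 and sre-49.
cdc-48.1, chrII:10563539-10563639: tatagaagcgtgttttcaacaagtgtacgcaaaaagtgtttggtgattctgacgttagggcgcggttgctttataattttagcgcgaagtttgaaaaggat
ufd-3, chrII:9940624-9940724: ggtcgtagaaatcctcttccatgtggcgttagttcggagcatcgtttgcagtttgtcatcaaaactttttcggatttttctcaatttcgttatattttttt
T15H9.8, chrII:9620343-9620443: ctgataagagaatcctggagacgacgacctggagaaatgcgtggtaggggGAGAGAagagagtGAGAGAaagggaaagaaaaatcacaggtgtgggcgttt
daf-19, chrII:10169412-10169512: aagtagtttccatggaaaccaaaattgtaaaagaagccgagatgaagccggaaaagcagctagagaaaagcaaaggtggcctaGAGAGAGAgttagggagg
F44E5.5, chrII:11759460-11759560: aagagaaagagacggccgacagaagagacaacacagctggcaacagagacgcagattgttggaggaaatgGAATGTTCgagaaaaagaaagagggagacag
iff-2, chrII:8561403-8561503: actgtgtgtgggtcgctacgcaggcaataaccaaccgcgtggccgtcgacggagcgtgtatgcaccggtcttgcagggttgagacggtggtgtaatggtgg
scl-17, chrII:1442293-1442393: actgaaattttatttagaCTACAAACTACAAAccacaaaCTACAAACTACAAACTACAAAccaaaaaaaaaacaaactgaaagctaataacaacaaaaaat
sre-49, chrII:12320375-12320475: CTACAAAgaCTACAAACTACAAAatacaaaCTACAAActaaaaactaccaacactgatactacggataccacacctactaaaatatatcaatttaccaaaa

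Strong NHR-11 peaks lay mostly in the centre of chromosome II, and most of that gathering came from 1 stretch of 1.2 Mb. A peak was called strong when it was among the strongest 500 of the whole pooled list by the authors' signal, a value per peak whose unit is not stated in the sources used here. Strong peaks were thus chosen by the measured signal of the pooled list, and what follows on their number and place is a description with no test. On chromosome II 116 of 1718 peaks, or 6.75%, were strong, against 4.96% of the peaks on the 5 chromosomes together. Chromosome II held 23.2% of the strong peaks (95% exact binomial interval 19.6 to 27.2%, which covers counting error only). Its density was 7.59 strong peaks per Mb, against 5.01 on III, 3.83 on IV, 3.06 on V and 5.87 on X. In the replicates taken alone, 116 of the strongest 500 peaks of replicate 1 and 123 of those of replicate 2 lay on chromosome II.

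The limits of the class fell among values that hardly differed. The last strong peaks on chromosome II, nearest the genes F01D5.2 and B0457.6, had signals of 41.4 and 41.2, and the next below, at cel-mir-8192 and T01E8.10, both had 41.1.

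The centre was taken as the stretch from 25 to 75% of the chromosome length and the arms as the remainder. Of the strong peaks of chromosome II, 85 of 116 lay in the centre, or 73.3% (64.3 to 81.1%). The same share was 58.0% on III, 59.7% on IV, 56.3% on V and 53.8% on X, and the lower bound for II lay below the upper bounds for III, IV and V. Per Mb there were 11.1 strong peaks in the centre of II, against 3.14 in its left arm and 4.97 in its right arm. The left arm held 12 strong peaks and the right arm 19. The share in the centre was smaller when weaker peaks were counted, at 59.6% for all 1718 peaks of II, against 57.5% on III, 53.2% on IV, 57.4% on V and 49% on X. Among the peaks of the authors' thresholded list, which are the strongest of the pooled list, it was 85.2%, or 23 of 27, with an interval of 66.3 to 95.8%. The strongest 500 peaks of each replicate gave 75% in replicate 1 and 74.8% in replicate 2.

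**Figure D1:**
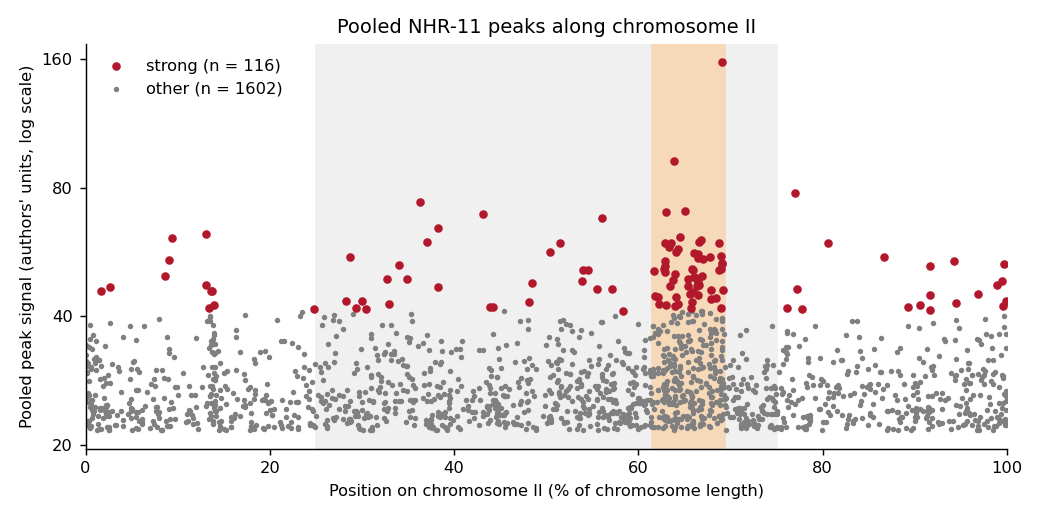
Signal of each pooled peak (authors' units, log scale) against its position on chromosome II in percent of the chromosome length, with 116 strong peaks in red and the other 1602 in grey. The centre is shaded grey and the dense interval orange, and 58 of the 116 strong peaks lie in the orange band.

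The dense interval lay between 9.4 and 10.6 Mb, at 61.5 to 69.4% of the chromosome length, and made up 7.85% of it. Its limits were set after the peaks had been counted, as the run of 100 kb bins with the greatest excess of the strongest 2000 peaks over 2 times the mean bin. It held 58 of the 116 strong peaks of chromosome II, or 50% (40.6 to 59.4%), and 16 of its 27 strongest. Strong peaks stood at 48.3 per Mb in the interval, against 4.19 in the rest of the centre, 4.06 in the arms and 4.35 on chromosomes III, IV, V and X together. The median distance between neighbouring strong peaks was 8.71 kb in the interval, against 109 kb on III, 179 kb on IV, 198 kb on V and 118 kb on X.

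Each replicate gave the same limits when the interval was sought in its list alone, and so did the pooled list and both replicate lists on the ce10 build. The pooled list had 141 of its strongest 2000 peaks there, or 11.8 per 100 kb, which was 5.77 times the mean of 2.04. Replicate 1 had 138 and replicate 2 had 145 of their own strongest 2000. Limits drawn from replicate 1 alone thus took in 36.2% of the strongest peaks that replicate 2 had on chromosome II, and limits drawn from replicate 2 took in 32.8% of those of replicate 1. On chromosomes III, IV, V and X the run found in the same way was at most 0.2 Mb long in the pooled list, and at most 0.6 Mb in the replicate lists on ce11, on IV in replicate 1. The run on IV in the pooled list was a single bin of 13 peaks, or 6.38 times the mean. The interval on II was lower as an average over its bins. Its fullest bin held 18 peaks, against at most 13 in any bin of III, IV, V and X. In the replicate lists on ce11 the run on II had 5.68 and 6.01 times the mean, against at most 4.94 and 4.97 on those chromosomes. The replicates were immunoprecipitations from the same strain, and neither whether their control shows the same interval nor whether the strain carries it in more than 1 copy was tested.

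In the strongest 2000 peaks of each list, whose counts set the limits, the right edge was a sharp step, and the left edge was less so in replicate 1. With all peaks of a list counted, the bins before and after the left edge held 15 and 21 in the pooled list. They held 33 and 31 in replicate 1 and 42 and 40 in replicate 2, so no step was seen there. The bins before and after the right edge held 39 and 11, 43 and 36, and 70 and 29 in the same order of lists. Among the strongest 2000 pooled peaks, the bin from 9.4 to 9.5 Mb held 9 peaks, against 1 in the bin before it, and the bin from 10.5 to 10.6 Mb held 18, against 0 in each of the next 2 bins. In replicate 1 these left bins held 6 against 4 peaks and the right bins 18 against 3, and in replicate 2 they held 14 against 2 and 23 against 0. All 12 bins of the interval held at least 7 of these peaks, with a median of 11.5 and a maximum of 18. The other 141 bins of chromosome II had a median of 1. Pooled peaks of any strength stood at 281 per Mb in the interval, against 107 in the rest of the centre. They stood at 90.8 per Mb in the arms and 96.6 on the other 4 chromosomes. The interval's count includes the 141 of the strongest 2000 pooled peaks that set its limits. Its higher density thus follows in part from that choice, and the weaker peaks were not counted apart.

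**Figure D2:**
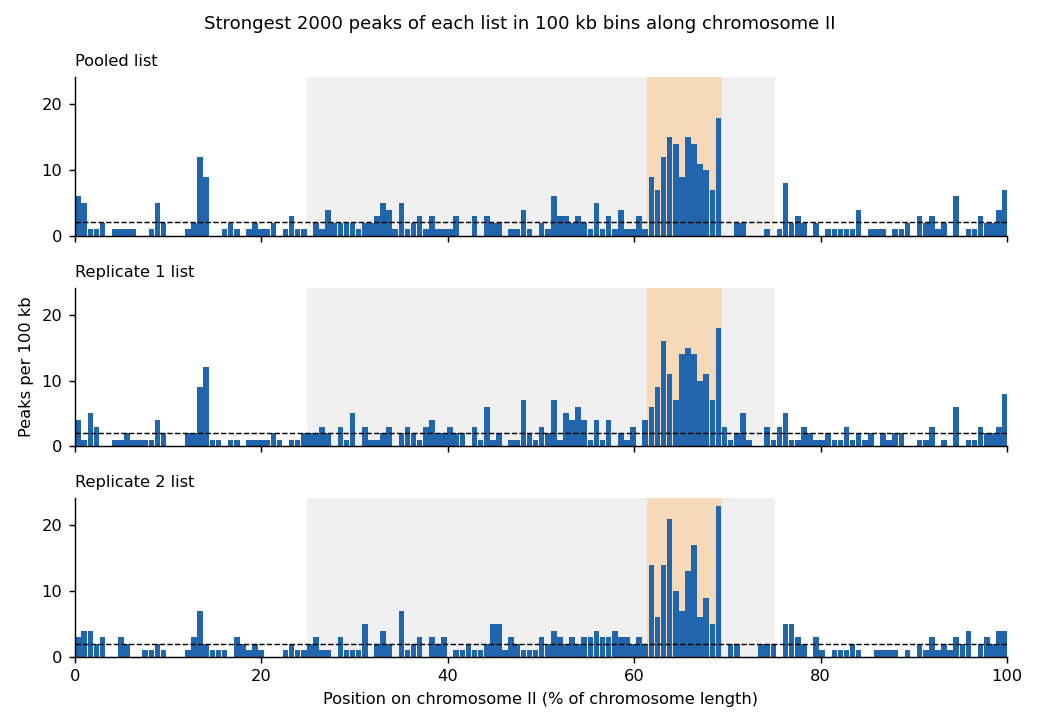
Number of the strongest 2000 peaks of the pooled list and of each replicate list in each 100 kb bin of chromosome II, against position in percent of its length, with the mean bin of the 5 chromosomes as a dashed line. In all 3 lists the bars of the orange interval stand highest as a run, with up to 18 peaks in a bin of the pooled list, 18 in replicate 1 and 23 in replicate 2.

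Without the interval, the excess of chromosome II in strong peaks and in their centre share was not seen. It then held 13.1% of the strong peaks on 14.2% of the genome length, at 4.12 per Mb. The centre then held 27 of 58 strong peaks, or 46.6% (33.3 to 60.1%), where the centre made up 45.7% of the remaining length. For all peaks the share without the interval was 49.7%. A smaller group stood on the left arm, where the bins from 2.0 to 2.1 and from 2.1 to 2.2 Mb held 12 and 9 of the strongest 2000 pooled peaks. Those bins held 9 and 12 such peaks in replicate 1 and 7 and 2 in replicate 2, so the second of them was not as full in replicate 2. The strong peaks of those bins were nearest F07E5.9, T16A1.10, WBGene00020081 and bath-24, with signals of 45.8, 45.7, 42.5 and 41.8. The last lay 290 bp upstream of bath-24 and past the end of its neighbour math-1, both genes for MATH domain proteins, and had no overlapping peak in replicate 1.

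**Figure D3:**
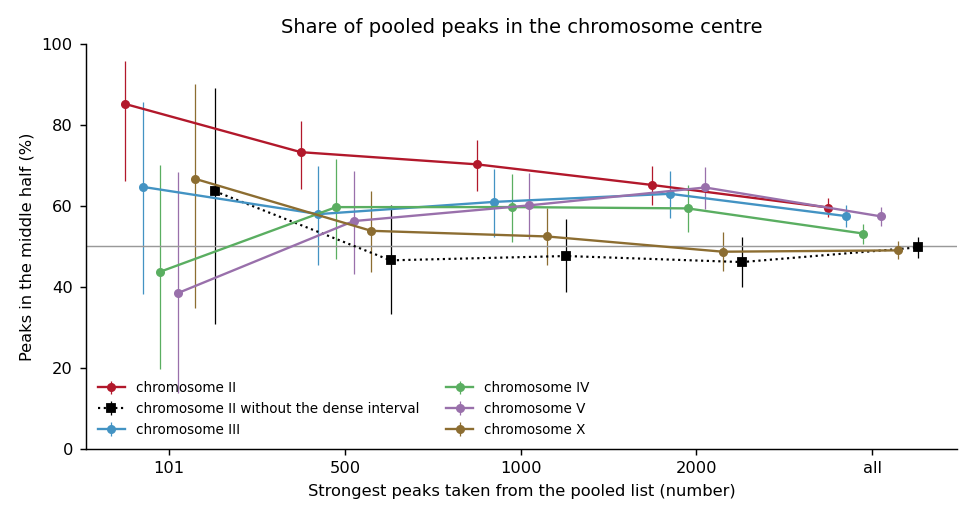
Percent of pooled peaks in the centre (25 to 75% of the length) of each chromosome, for the thresholded list, for the strongest 500, 1000 and 2000 peaks and for all peaks, with 95% exact binomial intervals. Chromosome II has 73.3% among the strongest 500 and 46.6% without the dense interval (black squares), against 53.8 to 59.7% on III, IV, V and X.

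The interval was compared with its surroundings for features that had no part in its choice. Protein-coding 5′ ends stood at 258 per Mb, against 230 in the rest of the centre and 217 in the arms. The arms differed, with 256 in the left arm and 178 in the right. In the interval, the rest of the centre and the arms, 5′ ends of all annotated genes stood at 358, 362 and 323 per Mb. The median GC content of its pooled peaks was 34.3%, against 34.6% in the rest of the centre and 35.4% in the arms. Peaks that matched another place in the genome (at least 90% identity over at least 50 bp) made up 6.53% of the interval's peaks, against 5.82% in the rest of the centre and 19.5% in the arms. Among strong peaks these shares were 5.17% (3 of 58), 22.2% (6 of 27) and 25.8% (8 of 31) in the same order of regions. In the centres of III, IV, V and X the share among strong peaks was 8.72% (15 of 172). Of the strong summits of the interval 69.0% had a gene 5′ end within 1000 bp, against 74.1% in the rest of the centre and 74.2% in the arms.

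**Figure D4:**
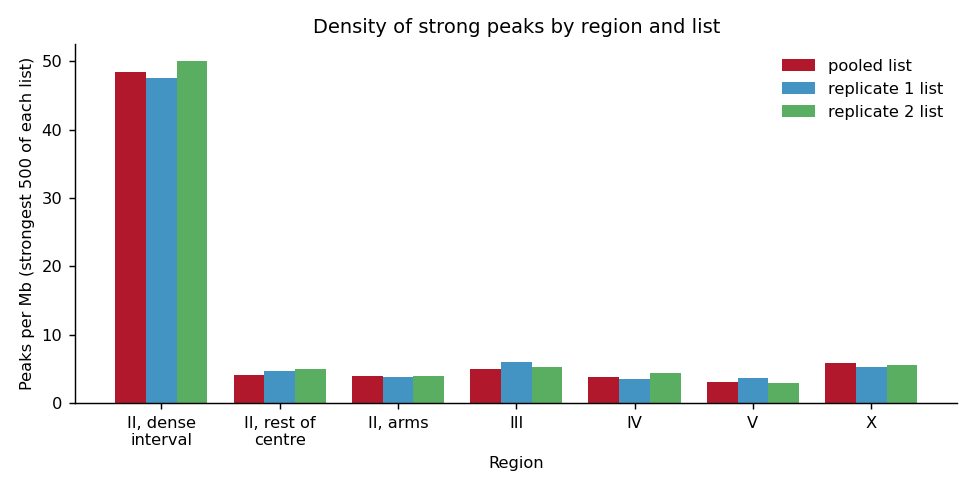
Density of the strongest 500 peaks of the pooled list and of each replicate list, in peaks per Mb, in 3 regions of chromosome II and on chromosomes III, IV, V and X. The interval stands at 48.3 per Mb in the pooled list, 47.5 in replicate 1 and 50 in replicate 2, against 4.19, 4.66 and 4.97 in the rest of the centre.

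Replicate support was read from the replicate lists. A pooled peak was called supported when it overlapped, by at least 1 bp, a peak among the strongest 2000 of both. The pooled list was itself made from both replicates, so support is not independent of it. Some pooled peaks overlap each other, as at sls-2.1 and pro-1. Counts of strong and supported peaks thus hold some sites more than once. Of all peaks of chromosome II 87, or 5.06% (4.08 to 6.21%), were supported, where the 5 chromosomes together had 3.78%. The shares elsewhere were 3.24% on III, 3.39% on IV, 3.39% on V and 3.69% on X. Of the strong peaks 68 of 116, or 58.6% (49.1 to 67.7%), were supported, where the 5 chromosomes together had 51.7%. Chromosome V had a like share of 59.4%, and III, IV and X had 46.4%, 47.8% and 45.2%.

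In the interval, whose limits were set from the strongest 2000 peaks and which gave the same limits in each replicate, a high supported share follows in part from that choice. In it 40 of 58 strong peaks were supported, or 69.0% (55.5 to 80.5%), against 28 of 58, or 48.3% (34.9 to 61.8%), on the rest of chromosome II, and these intervals overlap. For all its peaks the share was 14.2%, against 2.82% on the rest of the chromosome. Of the 48 strong peaks of chromosome II without support, 25 reached the strongest 2000 in replicate 1 alone, 21 in replicate 2 alone and 2 in neither. At 4 of the 116 strong peaks 1 replicate had no overlapping peak at all. These were the sites at F15D4.6, F27E5.7 and the astacin metalloprotease gene nas-7, with signals of 47.4, 37.3 and 39.9 in replicate 1, and that at bath-24, with 16.7 in replicate 2.

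The genes at the 27 strongest sites, which are also all chromosome II peaks of the authors' thresholded list, are given by what they encode. Signals ran from 157 to 55.3 with a median of 59.6, and the next peak below, at F15D4.6, had 55.0. By the deposited q-values 6 of the 27, and 6 of all 1718 peaks of chromosome II, had a false discovery rate of at most 0.05, and the highest rate among the 27 was 0.134. The nearest gene 5′ end was at most 1000 bp from the summit at 21 sites, upstream of it at 12, with a median distance of 154 bp. The summit was intergenic at 16 sites, in an intron at 6 and in an exon or UTR at the other 5.

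The strongest site of the chromosome was at cdc-48.1, which encodes an AAA ATPase that extracts ubiquitylated proteins, at chrII:10563506-10563659 and 182 bp upstream of the gene. Its signal was 157 in the pooled list, 1.71 times that of the next site on the chromosome, and 86.2 in replicate 1 and 73.5 in replicate 2, the highest of chromosome II in both. The snoRNA gene C06A1.9 lay 525 bp from the same summit, so the site cannot be assigned to 1 of them. At ufd-3, whose product is a ubiquitin-binding partner of CDC-48, the summit lay 79 bp upstream at chrII:9940496-9940851 and the signal was 70.6, with 24.3 in replicate 1 and 44.6 in replicate 2. Both sites are in the dense interval.

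Outside the interval, the site shared by F44E5.5 and F44E5.4, a divergent pair of near-identical genes for HSP70 chaperones, was the strongest of the right arm. Its signal was 77.8 at chrII:11759332-11759687, and the replicates were close, at 41.9 and 36.6. The site at C56C10.15 and icd-1, which encodes the beta subunit of the nascent polypeptide-associated complex, had 69.5. There the replicates differed, with 18 in replicate 1, at rank 3741 of its list, and 48.2 in replicate 2, at rank 14. At iff-2, which encodes the translation factor eIF5A, the summit lay 86 bp upstream with a signal of 67.8, and 25.9 and 41.8 in the replicates. A site with a signal of 59.2 was nearest the 5′ end of ostb-1, for a subunit of the oligosaccharyltransferase, at a distance of 1926 bp. Its summit lay past the end of that gene, in the 3′ UTR of its neighbour ztf-17.

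SL2 RNA genes, whose products are spliced onto the downstream genes of operons, lay at 2 sites in the centre outside the interval. The site at C17C3.23 and sls-2.2 had a signal of 74.0, with 43.3 in replicate 1 and 38.1 in replicate 2, and that at sls-2.1 had 64.3, with 39.2 and 32.7. These genes have near-identical copies, so reads at them may be split between places. The peak at C17C3.23 matched 2 other places and that at sls-2.1 matched 1. In the interval, a summit with a signal of 70.1, and 37.2 and 31.1 in the replicates, lay in an intron within the span of dnj-20, which encodes a DnaJ co-chaperone. The nearest 5′ end was that of the snoRNA gene T15H9.8, at 2302 bp. The piRNA gene 21ur-12807 and wee-1.3, which encodes an inhibitory kinase of the cell cycle, shared a site with a signal of 59.4.

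Other sites lay at genes for regulators of transcription. In the interval, at daf-19, which encodes the RFX factor of ciliated neurons, the summit lay 116 bp upstream with a signal of 59.6, but the replicates had 44.3 and 18.7. At hlh-6, also in the interval, for a basic helix-loop-helix factor of pharyngeal glands, the signal was 59.5, with 26.5 and 30.5. Outside the interval, mdt-26, for a subunit of the Mediator complex, had 59.6, with 25.3 and 32.9.

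The second strongest site of the chromosome, with 92.1, lay in the interval and had 36.5 in replicate 1 and 54.0 in replicate 2. Its summit was 164 bp upstream of the noncoding gene ZK1321.5. The 5′ end of shk-1, which encodes a voltage-gated potassium channel, lay on the same side of the summit, at 444 bp. The interval also held sites at chil-3, a chitinase-like gene, with 61.2, at the cytochrome P450 gene cyp-13A2 with 56.5 and at the neuropeptide-like gene nlp-63 with 55.9. The remaining sites of the interval, nearest tts-2, F59B10.8, ZK1320.13, ZK938.3, C18D1.16 and WBGene00014492, had signals between 55.3 and 60.2. The site at B0495.9 and the chemoreceptor gene sre-1, in the centre outside the interval, had 56.6.

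The arms held 4 of the 27 sites, and 2 of these were repeats. The peak nearest scl-17, on the left arm with a signal of 61.1, matched 57 other places in the genome, and that in sre-49, on the right arm with 59.2, matched 40. The windows printed above hold the unit CTACAAA 5 times at scl-17 and 4 times at sre-49. At least 2 copies, on either strand, were found in 0.582% of the windows of the same size at the middle of all chromosome II peaks. The unit was chosen after the sequences were seen. The other arm sites were F44E5.5 and linc-46, a long noncoding RNA gene, with 62.3.

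Across the 27 sites neither replicate was always the higher. The log2 of replicate 1 over replicate 2 had a median of 0.23 and an SD of 0.78 over sites, and replicate 1 was higher at 18 of 27. The extremes were cyp-13A2, at 1.69, with signals of 45.0 and 14, and C56C10.15, at -1.42. At 21 sites the peak was in the strongest 2000 of both replicates, at 15 in the strongest 500 and at 7 in the strongest 100. The 6 sites not in the strongest 2000 of both were C56C10.15, chil-3, sre-49, cyp-13A2, nlp-63 and WBGene00014492. No scaling between the replicate lists is stated, so these ratios also hold any difference in depth.

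**Figure D5:**
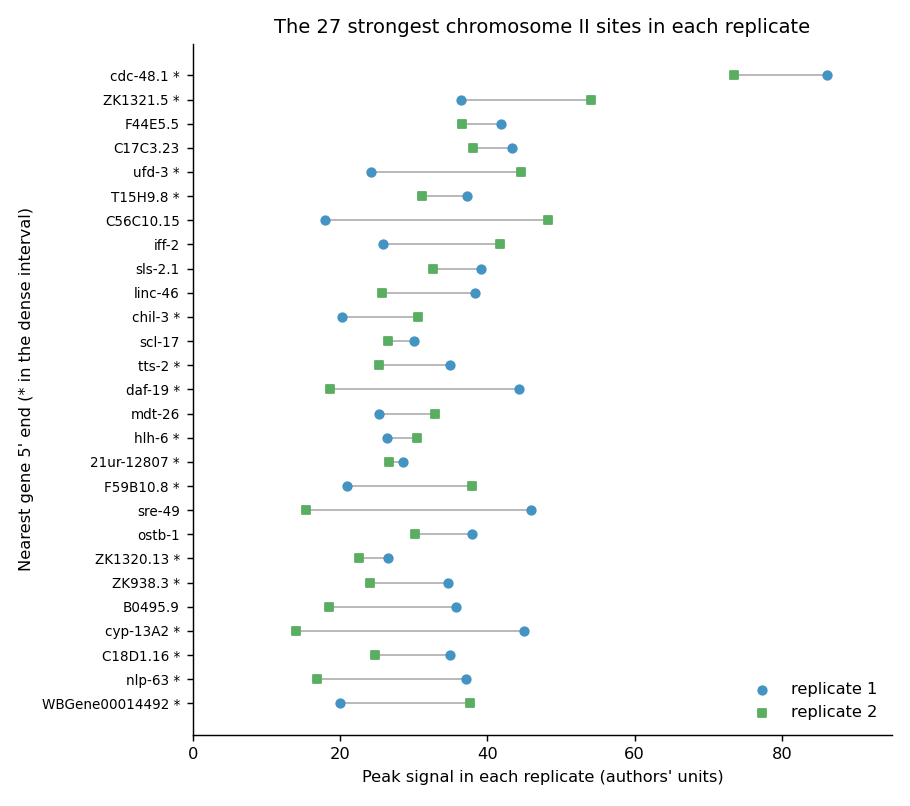
Signal (authors' units) of the 27 strongest chromosome II sites in replicate 1 (circles) and replicate 2 (squares), ordered by pooled signal and named by the nearest gene 5′ end. The site at cdc-48.1 stands apart at 86.2 and 73.5, and stars mark the 16 sites of the dense interval.

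The site at cdc-48.1 had rank 2 in the whole pooled list, whose highest signal, 447, lay outside the 5 chromosomes compared here. The 3 strongest sites of III, IV, V and X each had lower signals than it. On III they were nearest rpl-3, a ribosomal protein gene, with 125, F43C1.7 with 99.3 and tasp-1 with 97.8. On IV they were nearest F26D10.23, beside the chaperone gene hsp-1, with 106, WBGene00011483 with 77.0 and 21ur-11572 with 72.1. On V they were nearest the histone gene his-37 with 87.1, WBGene00016861 with 84.1 and unc-80 with 70.7, and on X nearest F52D10.7 with 130, nspc-17 with 127 and a tRNA gene with 109. The gene nhr-11 itself, on IV, had 0 summits within 1000 bp in all 3 lists, and unc-119, on III, had 2 in the pooled list with a best rank of 1959.

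A strong summit within 1000 bp of the 5′ end was found for 2.27% of the 5231 genes of chromosome II, against 0.98% on III, IV, V and X together and 1.14% on the 5 chromosomes. In the interval it was 48 of 430 genes, or 11.2%, against 1.48% on the rest of chromosome II. For protein-coding genes the shares were 10.7% in the interval and 1.5% on the rest of the chromosome. Neighbouring genes share summits, so these genes are not independent.

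By gene family the counts on chromosome II were small, and the share with a strong summit over all its genes was 2.27%. That share was 11.2% in the interval and 1.48% on the rest of the chromosome. Genes for ribosomal proteins, histones, F-box proteins, collagens, major sperm proteins and snRNAs had 0 members in the interval, so 1.48% is the share to set beside theirs. Among detoxification genes 2 of 38 had a strong summit, cyp-13A2 and cyp-13A3, the second with a signal of 44.5. At cyp-13A3 the replicates had 16.6 and 28.6, and neither of these peaks was supported. Of the 10 such genes in the interval 6 had a pooled summit of any strength, against 3 of the 28 elsewhere on II. Of all genes 41.9% had such a summit in the interval, against 21.8% on the rest of II. Among arm-rich families, 2 of 179 chemoreceptor genes had a strong summit (sre-1 and srh-135), 2 of 77 MATH and BTB genes (bath-24 and math-1), 1 of 107 F-box genes (fbxb-99) and 0 of 48 C-type lectin genes. Genes for ribosomal proteins had a strong summit in 0 of 10 cases on II, against 7 of 46 on III, IV, V and X. A pooled summit of any strength was near 6 of the 10 on II, against 56.5% on those chromosomes, where all genes had 23.5% on II and 20.4% on those chromosomes. Histone genes had a strong summit in 0 of 14 cases. Named chaperone genes had 1 of 11, dnj-20, which lies in the interval, with a signal of 42.5. F44E5.5 and F44E5.4 are not counted there because their symbols carry no chaperone prefix. None of 15 nuclear hormone receptor genes had one within the 1000 bp, although nhr-19 was the nearest gene of a supported strong peak in the interval, with a signal of 53.8. Collagen and cuticle genes had 1 of 33 (dpy-10) and major sperm protein genes 1 of 13 (msp-50). On III, IV, V and X these families had 0.74% and 0%. A strong summit was near 4 of 71 snoRNA, 3 of 16 snRNA, 1 of 57 tRNA and 4 of 109 piRNA genes. Those shares were 5.63%, 18.8%, 1.75% and 3.67%, against 5.97%, 1.03%, 4.29% and 0.63% on III, IV, V and X. The snRNA genes sls-2.2 and sls-2.3 share the same peak.

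Motifs were sought on either strand in windows reaching 50 bp to each side of the 116 strong summits, and in 232 flanking windows of equal length at a distance of 500 bp. GAGAGA was in 9.48% of summit windows and 4.31% of flanks, against 13.2% of strong summit windows on III, IV, V and X, and in 7.74% of the windows of all chromosome II peaks. In the interval it was in 7 of 58 windows, and on the rest of chromosome II in 4 of 58. The heat shock unit was in 8 windows, or 6.90%, and in 5.17% of flanks, and in 7.22% of the windows of all chromosome II peaks. AGGTCA, a half-site of nuclear receptors, was in 1 summit window and 10 flanks. Its variant GGGTCA was in 3 summit windows and 1 flank. The E box CACGTG was in 0 and 4, the AP-1 motif TGACTCA was in 0 and 2, and the tRNA B box was in 1 and 8. A match describes these letters in these windows and nothing about binding.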

How the data were processed

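ChIP-seq peak lists of 2 biological replicates were used, on ce11 with ce10 as an alternative. The fragment size range was 150 to 350 per the labels. Each replicate's list, per the deposited file descriptions, holds peaks and background derived from its alignments and a control, and the pooled list comes from both. The signal of a peak is the authors' deposited value with no unit stated. The deposited −log10 column gives the q-value within a list. The aligner, caller and settings are not given in the sources used here, and the depth is unknown.

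Peaks were counted by chromosome, region and 100 kb bin, and overlaps needed 1 bp. Summits were assigned to the nearest gene 5′ end of Ensembl 115. Sequences came from RefSeq WBcel235, and other matching places from BLAST 2.17.0. No test was made: 95% exact binomial intervals cover counting error only, and peaks are not replicates. Named are the nearest gene, and a second gene within 1000 bp, of the 27 strongest chromosome II peaks, the 3 strongest of each other chromosome, up to 5 strong members of each of 18 gene lists or biotypes, and nhr-11 and unc-119. Other genes named at the limits of a class, at sites without a partner peak or as an example of a site were chosen after their values were seen. Members, lists and motifs were chosen with earlier results of these data known. On simulated data a run search found a planted interval within 1 bin at both edges in 97 of 100 trials. Those trials had more peaks on the chromosome and a baseline set from the median bin. They thus do not give the edge accuracy of the search used here. Python 3.11.15, numpy 2.4.6, pandas 2.3.3, scipy 1.17.1 and matplotlib 3.10.9 were used.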

Additional observations from a re-analysis of the deposited data

How the results depend on the processing

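Of 54 alternative values of 6 shares, 34 stayed within the counting interval of the reported value. For strong peaks of chromosome II in the centre (73.3%), a narrower centre, with each arm as long as it, gave 53.4%. That narrower centre covers less of the chromosome, so a lower share in it does not by itself show less gathering. The length of the thresholded list in place of 500 gave 85.2% and leaving out the dense interval gave 46.6%. For all its peaks in the centre (59.6%), the same narrower centre gave 40.8%, the low-recombination domain from 4.9 to 12 Mb 57.2% and the chromosome without the interval 49.7%. Leaving out the interval also lowered the chromosome's share of strong peaks to 13.1% and their support to 48.3%. Support was 77.8%, 35.1% and 19.8% for the thresholded list, the strongest 1000 and the strongest 2000, and 21.6% and 81.0% when the top 500 and top 5000 of both replicates were required. Summits near a gene 5′ end (71.6%) were 60.8% and 59.9% among the strongest 1000 and 2000, 56.0% and 81.9% with windows of 500 and 2000 bp, and 59.5% for protein-coding genes. With 1 replicate left out they were 56.0 to 69.1%. The interval held 35.3% of the strongest 2000 peaks on chromosome II. The alternatives about the interval were added after seeing the data, and the cause of these shifts was not tested. Support could not be given with a replicate left out. No paired analysis was possible because there was 1 group.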
